A study of Mus musculus with 16 samples.

Results

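S100 proteins are small calcium-binding proteins of the EF-hand type that usually work as dimers and dock onto partner proteins when calcium rises. In the brain, S100b is best known as a protein of astrocytes, where it acts inside the cell and is also released. It is commonly used to tell mature astrocytes from the neural stem cells that resemble them. This account follows 7 genes of the family (S100b, S100a1, S100a4, S100a6, S100a10, S100a11 and S100a13) in cultured adult mouse neural stem cells. A probe set, the group of array probes read as one signal, counted for a member when the platform annotation gave it that symbol alone. The probe set with the highest mean signal stood for each gene, and any other served as a check. Of the 7 members, 6 had such a probe set, out of 12393 genes on the array that did. The probe set for S100a11, a partner of annexin A1, is listed with 3 symbols, one of them an S100a11 pseudogene, so no value is given for that gene.

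Every culture was Tlx(f/Z) in genotype. Tlx is a nuclear receptor, the product of Nr2e1, known for maintaining neural stem cells, and f is a common notation for an allele that Cre recombinase can delete. In 8 of the 16 samples there was also CreER, a Cre fused to an estrogen receptor domain that 4-hydroxytamoxifen (4OHT, written 4OH-TM in the labels) switches on. The other cultures had no Cre. Each genotype received 4OHT or vehicle and was collected at 36 h or 60 h, giving 8 groups of 2 arrays and 16 arrays in all. The promoter that drives CreER, the meaning of Z and the animals behind each culture are not given in the sources used here. The replicates are called biological, but separate animals or cultures are not stated, so a p-value here reflects only the variation among these samples.

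The whole array set the frame. Array medians ran from 92.2 to 132.6, replicate arrays correlated at r = 0.988 to 0.991 across probe sets, and 0 probe sets were listed for Nr2e1, so the deletion itself was not checked. The Esr1 probe set read 279 to 444 on CreER arrays and 11.7 to 32.2 on arrays without Cre. Of the stem and progenitor markers 13 of 15 with a probe set passed the filter on low signal, whereas 9 of 10 microglial, 9 of 10 endothelial and mural, 8 of 9 fibroblast and meningeal and 4 of 4 ependymal markers lay under it. A gene was tested when its mean log2(signal + 16) reached 6.07, a signal of 51.1, which 7619 genes did. Among the members S100b, S100a10 and S100a13 were tested, and S100a1, S100a4 and S100a6 lay under the filter.

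The stretches just upstream of S100b and S100a4, and the one between S100a1 and S100a13, are shown so that the results can be set beside these promoters. They are from RefSeq on GRCm38.p6, plus strand, and end at the base before the annotated start, except the last. S100b lies on chromosome 10 at chr10:76253586-76253835, apart from the 15 S100a genes of the cluster on chromosome 3. The S100a4 stretch, chr3:90603520-90603769, has TATAAA in capitals, 26 bases before the start. S100a1 and S100a13 are neighbours that start on opposite strands, and the third stretch, chr3:90514331-90514434, is the whole 104 bases between their starts.
S100b: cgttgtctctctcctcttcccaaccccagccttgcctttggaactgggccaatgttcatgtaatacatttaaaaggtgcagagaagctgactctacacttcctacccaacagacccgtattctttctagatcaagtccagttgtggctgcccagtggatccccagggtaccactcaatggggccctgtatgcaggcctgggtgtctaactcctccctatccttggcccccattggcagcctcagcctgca
S100a4: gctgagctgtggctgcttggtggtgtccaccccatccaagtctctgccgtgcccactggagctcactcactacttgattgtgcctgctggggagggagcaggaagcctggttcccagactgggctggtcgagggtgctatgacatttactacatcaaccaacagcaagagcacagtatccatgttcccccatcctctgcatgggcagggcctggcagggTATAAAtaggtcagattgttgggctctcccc
S100a1 to S100a13: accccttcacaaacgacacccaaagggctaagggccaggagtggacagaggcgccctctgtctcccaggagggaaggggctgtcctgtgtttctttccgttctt

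Both strands of the 250 bases upstream of each start were searched for AAGTCA, the core that TLX binds, for TGANTCA, the AP-1 site, for the p53 decamer and for TATAAA. Of the 7 members, 6 had a promoter entry, all but S100a10. AAGTCA stood once upstream of S100a11 and in none of the other 5 windows, against 13.1% of all 32817 windows. TGANTCA stood at 2 places upstream of S100a11, against 6.75% of windows, and the p53 decamer in none of the 6, against 7.12%. TATAAA stood upstream of S100a4 alone, against 12.4%. A match is only a match of letters in these windows.

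S100b had the largest response to 4OHT of the 3 tested members. With vehicle, its signal on CreER arrays was 174 and 209 at 36 h and 244 and 187 at 60 h. With 4OHT it was 313 and 345 at 36 h and 529 and 627 at 60 h. All 4 arrays with 4OHT lay above all 4 with vehicle, and the 60 h pair lay above the 36 h pair. For this and the other members, the share of all genes that separate by treatment in this way was not counted.

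On arrays without Cre, S100b read 567 and 613 at 36 h and 577 and 609 at 60 h with vehicle. With 4OHT those cultures gave 499 and 400 at 36 h and 599 and 409 at 60 h. The lowest of these 8 values is above the highest CreER value with vehicle, and the CreER cultures at 60 h of 4OHT reached the range of cultures without Cre. The share of all genes that separate by genotype in this way was not counted. With vehicle, limma called 34.7% of genes between genotypes, 2030 lower with CreER and 610 higher. In order of mean signal the groups ran from CreER vehicle at 36 h (191) and 60 h (215), which overlapped, to CreER 4OHT at 36 h (329). The 5 groups above, from no Cre with 4OHT at 36 h (449) to no Cre with vehicle at 60 h (593), each overlapped the next.

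**Figure D1:**
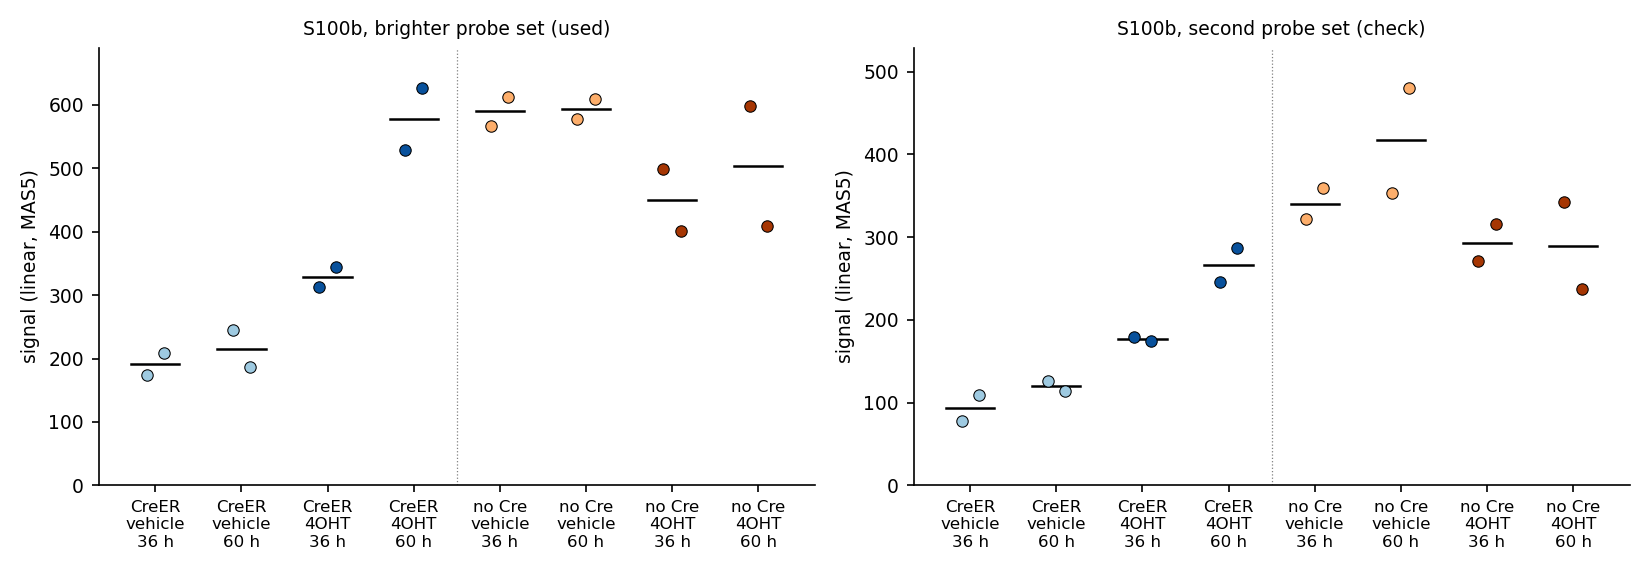
Linear MAS5 signal of S100b on the 16 arrays by genotype, treatment and time, for the probe set used (left) and the second probe set (right), which have separate axes starting at 0. Points are arrays and black bars are means of 2 arrays. In both panels the CreER arrays with 4OHT lie above those with vehicle, and the arrays without Cre above the CreER vehicle arrays.

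Over both times, S100b rose with 4OHT in CreER cultures from 203 ± 31.0 to 453 ± 150 (SD, n = 4 each), a ratio of 2.23. The log2 difference was 1.05 ± 0.13 (SE; limma adjusted p = 2.84e-12), the 13th largest rise of 7619 genes. It was 0.74 ± 0.19 at 36 h (adjusted p = 0.0102) and 1.37 ± 0.19 at 60 h (adjusted p = 3.87e-10). These SEs and p-values rest on the variance trend over all tested genes, not on the replicate spread of S100b alone. With no filter on signal the limma adjusted p over both times was 3.34e-04. The difference between the times, 0.63 ± 0.27, did not pass (adjusted p = 0.79). After median scaling that difference was 0.78 and after quantile normalization 0.72, and both passed (adjusted p = 0.0145 and 0.0178). With the actin control ratio as a covariate it was 0.27 (adjusted p = 0.590), and with the second probe set 0.22, and neither passed. The second probe set gave 0.83 at 36 h, 1.05 at 60 h and 0.94 with the times pooled. The call at 36 h was lost without CreER vehicle replicate 1 (0.61, adjusted p = 0.219) and without either 4OHT replicate (0.80 and 0.67, adjusted p = 0.113 and 0.236).

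These are bulk cultures, in which fewer cells of a type and less RNA per cell cannot be told apart. Astrocyte genes did not move as one group beside S100b: of 14 tested markers 2 rose and 4 fell with 4OHT in CreER cultures. Of all 7619 genes 305 rose and 639 fell (12.4% called). Clu, the secreted chaperone clusterin, rose by 0.45 and Mlc1, a membrane protein of astrocyte end feet, by 0.37. Slc4a4, a bicarbonate transporter, fell by 0.60 and Id3 fell by 0.35. The list's median was −0.13 against −0.07 over all genes. Its summed signal, over 21 genes, was 28680 to 34220 with vehicle and 26710 to 31769 with 4OHT. The stem and progenitor list shares Fabp7 with the astrocyte list. Among stem and progenitor markers 0 rose and 4 of 13 fell, led by the proliferation gene Mki67 (−0.81) and the transcription factor Pax6 (−0.40). Their summed signal was 19605 to 24413 with vehicle and 17437 to 22173 with 4OHT, and their part in the S100b result was not tested.

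In cultures without Cre, S100b was 591 ± 23.0 with vehicle and 477 ± 92.6 with 4OHT (SD, n = 4 each). The log2 difference of −0.32 ± 0.13 had an unadjusted p of 0.0171 and did not pass after adjustment. The response in CreER cultures exceeded that without Cre by 1.37 ± 0.19 on the log2 scale (limma adjusted p = 5.54e-10), the 9th largest such difference. It was the only one of the 3 tested members whose response differed between genotypes, where 2.36% of all genes (180) did. S100a13 gave 0.56 (adjusted p = 0.167) and S100a10 0.32 (adjusted p = 0.39). After median scaling or quantile normalization all 3 passed.

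With vehicle alone, S100b was lower in CreER cultures by 1.48 ± 0.13 on the log2 scale (adjusted p = 1.87e-26). The same CreER vehicle arrays enter this comparison and the 4OHT response, so the values are not independent. Under 4OHT the genotypes differed by −0.11 (95% interval −0.37 to 0.15; adjusted p = 0.56), and by 0.03 after median scaling and 0.09 after quantile normalization. With the second probe set in its place it was −0.39 and passed (adjusted p = 0.0161). When all 20380 probe sets were fitted together, dim ones included, it did not pass (adjusted p = 0.0731). The 5' to 3' actin control ratio (a control for RNA quality and for labelling) was 0.548 to 0.666 on the 4 arrays without Cre at 36 h and 0.716 to 0.891 on the other 12. With that ratio as a covariate the vehicle difference was −1.24 and the response in CreER cultures 1.02, both passing.

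S100a13, which takes part in the release of the growth factor Fgf1, was also lower in CreER cultures than in cultures without Cre. On CreER arrays it read 65.6 and 85.3 at 36 h and 67.9 and 58.8 at 60 h with vehicle. With 4OHT it read 88.7 and 106 at 36 h and 99.6 and 118 at 60 h. All 4 values with 4OHT again lay above all 4 with vehicle. Without Cre it was 294 and 239 at 36 h and 197 and 237 at 60 h with vehicle, and 272 and 216, then 233 and 189 with 4OHT. Every array without Cre lay above every CreER array. How many of all genes separate by genotype in this way was not counted. Between genotypes limma called 34.7% of genes with vehicle and 38.6% under 4OHT.

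S100a13 rose in CreER cultures from 69.4 ± 11.3 to 103 ± 12.1 (SD, n = 4 each), by 0.48 ± 0.15 on the log2 scale (limma adjusted p = 0.0143). The difference was 0.32 at 36 h (adjusted p = 0.596) and 0.65 at 60 h (adjusted p = 0.0323). After adding the actin ratio to the fit, the 60 h value was 0.36 (adjusted p = 0.274). Without CreER vehicle 36 h replicate 1 or 4OHT 36 h replicate 2 the rise over both times was 0.40 and 0.43 (adjusted p = 0.0929 and 0.108). The 60 h call was lost without either vehicle replicate (adjusted p = 0.0587 and 0.119) or 4OHT replicate 2 (adjusted p = 0.143). Without Cre the difference with 4OHT was −0.08 and did not pass. Under 4OHT the genotypes differed for S100a13 by −1.03 ± 0.15 (adjusted p = 8.74e-11), against −1.59 ± 0.15 with vehicle (adjusted p = 3.89e-25).

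S100a10, also called p11, pairs with annexin A2 and is unusual in the family in not needing calcium. Its signal ran from 2467 to 4554 over the 16 arrays. CreER cultures read 3046 and 3524 at 36 h and 3629 and 2769 at 60 h with vehicle, and 4054 and 4284, then 3655 and 4554 with 4OHT. All 4 values with 4OHT lay above those with vehicle, the closest pair being 3629 and 3655. On the second probe set the treatments overlapped: a 60 h array read 1284 with 4OHT and another 1859 with vehicle. Cultures without Cre read 3493 and 3456, then 2467 and 2963 with vehicle, and 3365 and 2798, then 3555 and 2877 with 4OHT, with wide overlap.

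The rise of S100a10 in CreER cultures, from 3242 ± 405 to 4137 ± 380 (SD, n = 4 each), was 0.35 ± 0.11 (limma adjusted p = 0.0155). Neither time passed alone (0.35 and 0.36, adjusted p = 0.296 and 0.150), and without Cre the difference was 0.03. The call was lost without CreER vehicle 36 h replicate 1 (0.30, adjusted p = 0.0994), vehicle 60 h replicate 2 (0.26, 0.102), 4OHT 36 h replicate 1 (0.37, 0.0534) or 2 (0.33, 0.0935) and 4OHT 60 h replicate 2 (0.27, 0.0844). After median scaling it was 0.41 and after quantile normalization 0.38, both passing, as did each time alone. With the second probe set in its place the rise was 0.38 and passed (adjusted p = 0.0223), with 0.69 at 36 h (adjusted p = 0.00743) and 0.07 at 60 h. When all 20380 probe sets were fitted together it did not pass with the times pooled (adjusted p = 0.364). The genotypes did not differ detectably with vehicle (0.07 as deposited, against 0.25 after median scaling and 0.18 after quantile normalization, which passed). Under 4OHT CreER cultures were higher by 0.39 ± 0.11 (adjusted p = 0.00158).

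S100a4, a binding partner of nonmuscle myosin linked to cell movement, lay under the filter. On CreER arrays it read 31.9 and 36.1, then 32.6 and 12.3 with vehicle, and 40.1 and 42.2, then 56.5 and 87.0 with 4OHT. Without Cre all 8 values lay between 7.49 and 21.3. Its direction between genotypes was the reverse of that of S100b and S100a13. In a fit of all 12393 genes, added after the levels were seen, its difference with 4OHT in CreER cultures was 0.71 ± 0.21 over both times (adjusted p = 0.0645), and passed without CreER vehicle 60 h replicate 1 (0.90) and after median scaling or quantile normalization (0.76 and 0.78). It was 1.22 ± 0.30 at 60 h (adjusted p = 0.0403), where 2.05% of genes passed. That call was lost without CreER vehicle 60 h replicate 2 (0.83) and without either 4OHT 60 h replicate (1.47 and 0.97). Between genotypes it was 0.62 ± 0.21 with vehicle (adjusted p = 0.0458), where 20% of genes passed, and 1.30 ± 0.21 under 4OHT (adjusted p = 2.11e-04), where 21.5% did. The vehicle difference was lost without CreER vehicle 36 h replicate 1 or 2 (0.65 and 0.59), CreER vehicle 60 h replicate 1 (0.42), no Cre vehicle 36 h replicate 1 (0.45) or no Cre vehicle 60 h replicate 1 or 2 (0.68 and 0.55).

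S100a1, known for binding calcium-handling proteins in muscle and brain, overlapped between genotypes, reaching 53.1 on CreER arrays and 82.9 without Cre. With 4OHT its CreER values were 39.2 and 14, then 19.6 and 25.6, against 37.0 and 37.3, then 53.1 and 32.0 with vehicle. The treatments overlapped too, and the difference of −0.48 ± 0.21 did not pass (adjusted p = 0.224). Under 4OHT it was lower in CreER cultures by 0.87 (log2 difference −0.87 ± 0.21, adjusted p = 0.00561). Its second probe set read 1.95 to 29.9 and gave −0.44 there (adjusted p = 0.344). S100a1 and S100a13 share the 104 bases printed above, and in the fit of all 12393 genes their 4OHT differences in CreER cultures were −0.48 (adjusted p = 0.224) and 0.48 (adjusted p = 0.0754), neither passing. The second S100a1 probe set gave 0.03 in the fit of all 20380 probe sets. S100a6, or calcyclin, read 0.529 to 19.3 over all 16 arrays and did not pass in any comparison, with differences of −0.10 with 4OHT in CreER cultures and −0.01 between genotypes with vehicle.

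**Figure D2:**
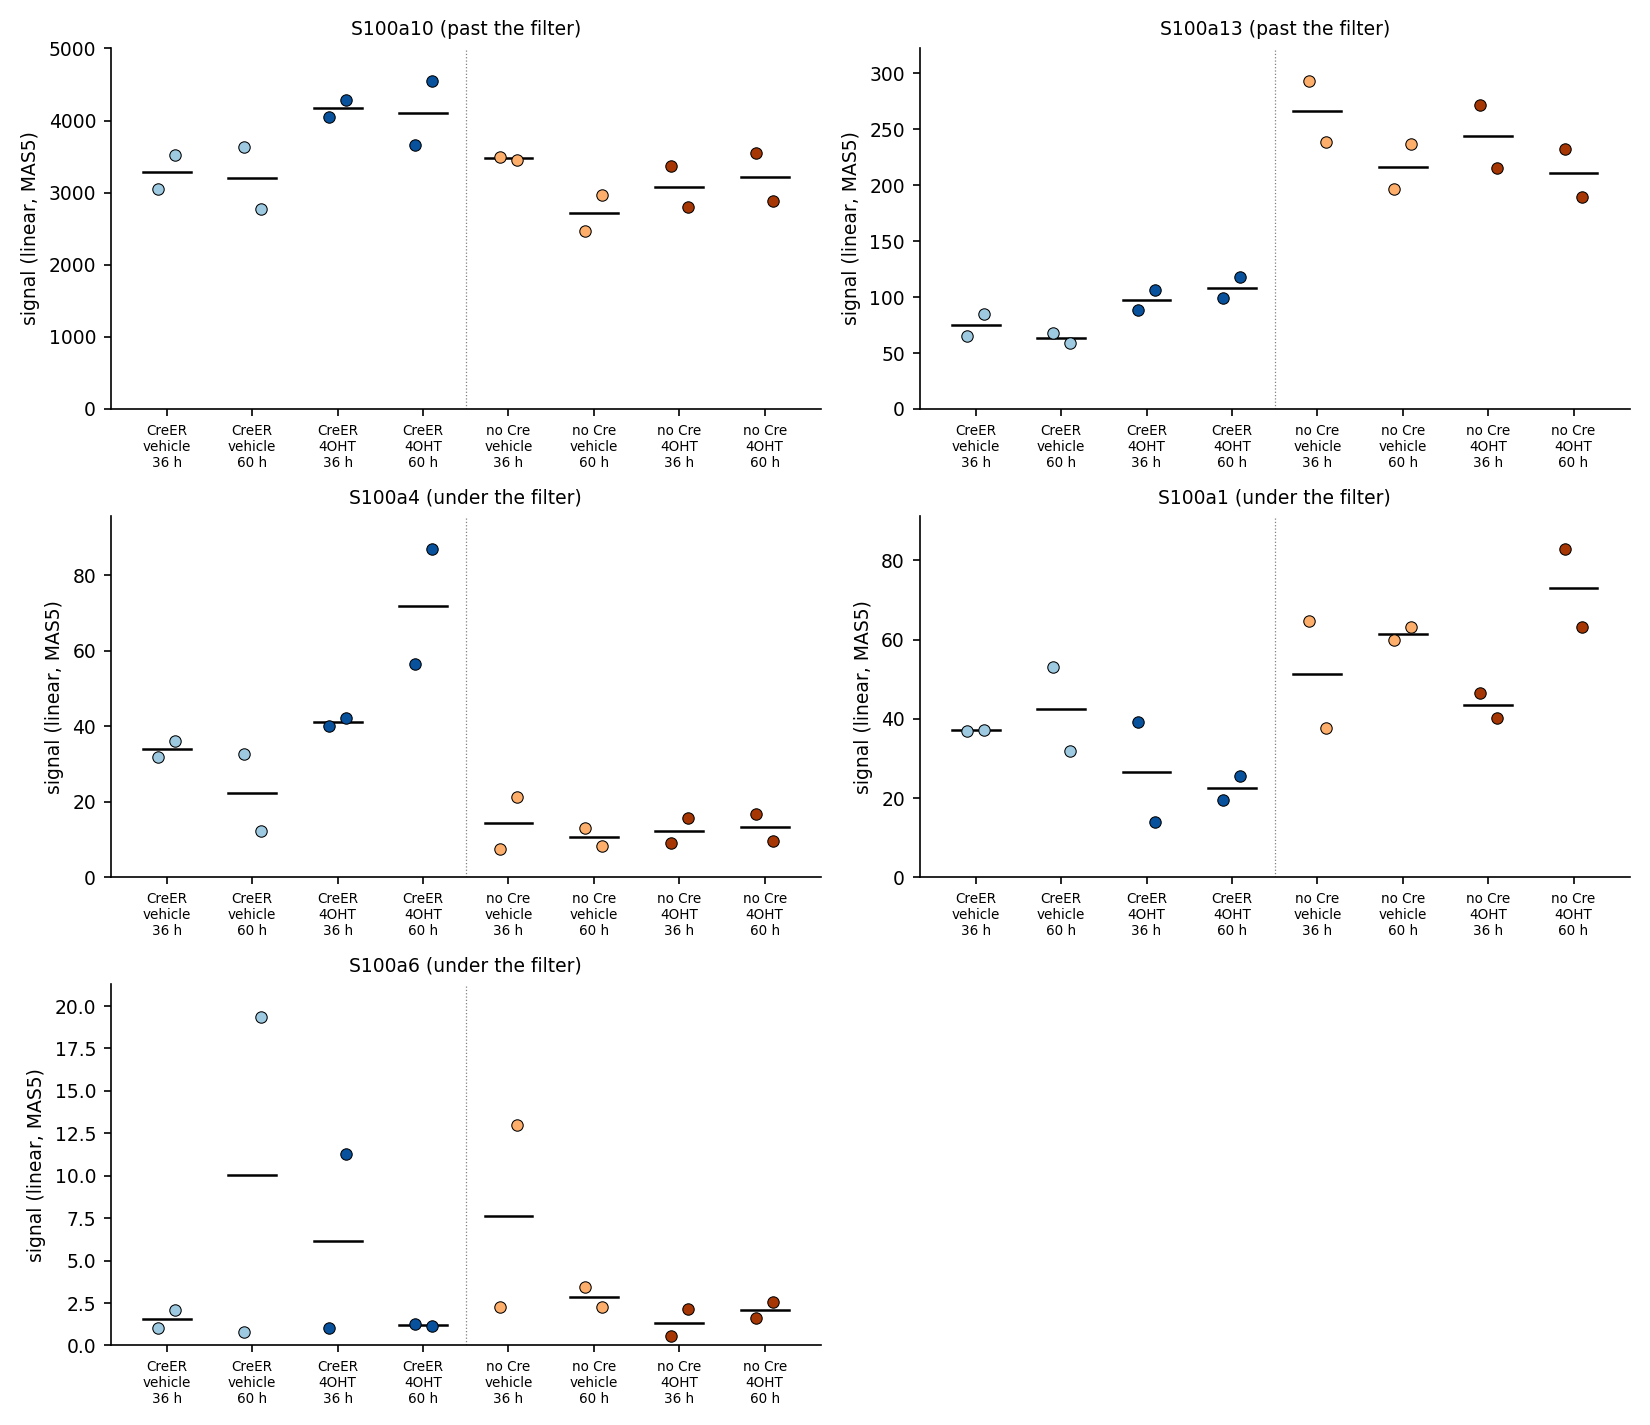
Linear MAS5 signal of S100a10, S100a13, S100a4, S100a1 and S100a6 on the 16 arrays by group, each panel with its own axis from 0; points are arrays and black bars are means of 2. S100a13 lies between 189 and 294 without Cre and between 58.8 and 118 with CreER, and S100a4 is highest at 60 h of 4OHT in CreER cultures (56.5 and 87.0).

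Set against all genes, 3 of the 3 tested members rose with 4OHT in CreER cultures over both times. There 12.4% of genes (944) were called, 305 higher and 639 lower, and the median of all genes was −0.07. With no filter on signal, or with no moderation, 1 of the 3 was called. Members were chosen with earlier results of these data known, so the shares in this paragraph are no test of the family. At 36 h, 1 of 3 was called against 2.64% of genes, and at 60 h 2 of 3 against 7.02%. Without Cre, limma called 0 of 3 with the times pooled (0.0656% of genes), 0 of 3 at 36 h (0.0131%) and 0 of 3 at 60 h (0.171%). At an unadjusted p under 0.05, S100b alone was lower over both times and at 36 h. For the difference between the CreER responses at the 2 times limma called 0 of 3 (0.197% of genes), with 1 at an unadjusted p under 0.05. Between genotypes with vehicle, 2 of 3 were lower with CreER, where 34.7% of genes were called and the median of all genes was −0.13. Under 4OHT, a comparison added after the levels were seen, 1 was higher and 1 lower, against 38.6% of genes. For 60 h against 36 h over the 4 conditions, S100b was higher by 0.27 ± 0.10 (adjusted p = 0.0399), 1 of 3, against 11.8% of genes. That call was lost under 15 of 27 alternatives.

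Single arrays moved these shares of all genes. At 36 h the 201 genes called in CreER cultures became 59 when vehicle replicate 1 was left out, 79 for vehicle replicate 2, 32 for 4OHT replicate 1 and 38 for 4OHT replicate 2. At 60 h the 535 became 324 without vehicle replicate 1 and 356 without 4OHT replicate 1. Over both times the 944 became 625 without vehicle 36 h replicate 2 and 521 or 585 without 4OHT 36 h replicate 1 or 2. The 180 genes whose response differed between genotypes became 93 to 118 when any 1 of 6 arrays at 36 h was left out, all but the CreER vehicle arrays.

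**Figure D3:**
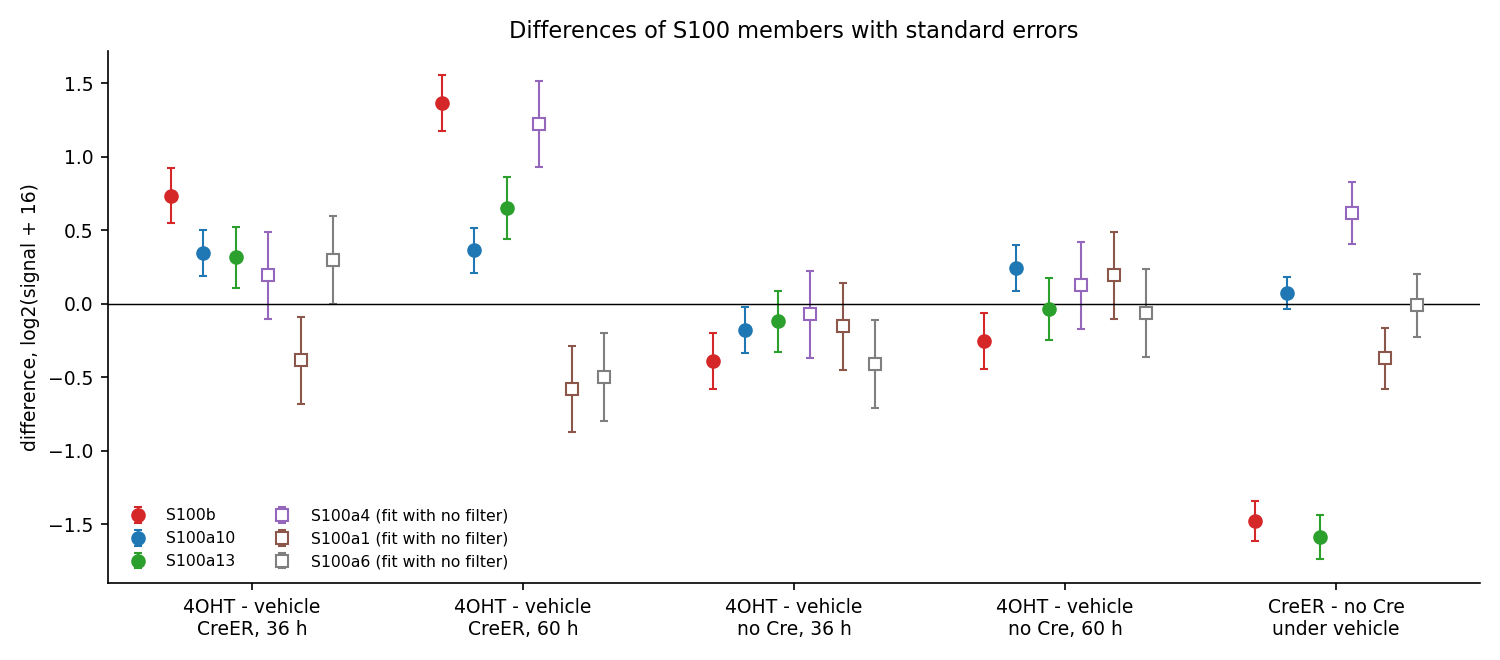
Differences on the log2(signal + 16) scale with standard errors for 6 members in 5 comparisons; filled circles are from the fit of the 7619 tested genes and open squares, for members under the filter, from the fit of all 12393 genes. S100b reaches 1.37 at 60 h of 4OHT in CreER cultures and lies at −1.48 between genotypes with vehicle, and S100a4 is on the other side of 0 there at 0.62.

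The rest of the family was mostly dim. Of 15 other S100 genes and relatives listed, 11 had a probe set and 2 were tested, S100a16 and the S100P-binding protein gene S100pbp. With 4OHT in CreER cultures 0 of them passed in limma (0.23 and −0.35, adjusted p = 0.432 and 0.0687), where 12.4% of all genes did. Both were lower in CreER cultures with vehicle, by −0.60 (adjusted p = 0.0019) and −0.44 (adjusted p = 0.00461). In that comparison 34.7% of all genes were called, 2030 lower and 610 higher. The other 9, among them the inflammatory pair S100a8 and S100a9, lay under the filter.

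Annexins are the best known partners of S100a10 and S100a11. Of 6 tested, 1 rose with 4OHT in CreER cultures and the list's median was 0.23 against −0.07 for all genes. Anxa1 rose from 38.8 ± 9.36 to 103 ± 14.8 (SD, n = 4 each), a log2 difference of 1.12 ± 0.15 (adjusted p = 3.71e-11). Its vehicle mean was under the filter's signal of 51.1, and the brighter cultures without Cre counted toward passing it. Anxa2, the partner of S100a10, was 115 ± 17.9 and 150 ± 41.7 (0.31, adjusted p = 0.120). With vehicle 4 of the 6 were lower in CreER cultures and 1 higher, where 34.7% of genes were called (2030 lower and 610 higher). That count may hold genes that passed the filter through the cultures without Cre, so it is not read as a result about annexins. With vehicle, the CreER means of Anxa5 (10.7 ± 7.88 against 195 ± 44.7 without Cre) and Anxa1 (38.8 ± 9.36 against 274 ± 58.4) were under the filter's signal of 51.1. The brighter cultures without Cre counted toward passing it, so no fold between genotypes is given for these genes. Anxa2 differed by −1.99 and S100a10 by 0.07.

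Of 21 tested partners and receptors of S100 proteins, 3 rose and 1 fell with 4OHT in CreER cultures, with a median of −0.03, against 12.4% of all genes called. Mapt, the microtubule protein tau, rose by 0.84, Syt1, a calcium sensor of secretion, by 0.49, and Mdm2, the p53 ubiquitin ligase, by 0.42. Cacybp, the calcyclin-binding protein, fell by 0.43 (adjusted p = 0.00737). Of 22 other EF-hand genes 2 rose, the matrix glycoprotein Sparc by 0.60 and the mitochondrial protein Efhd1 by 0.53, and 0 fell, with a median of 0.12, against the same 12.4%. Between genotypes with vehicle 9 of those 22 were lower in CreER cultures and 0 higher. There 34.7% of the 7619 genes were called, 2030 lower and 610 higher. Genes can pass the filter through the cultures without Cre, so that count is not read as a result about EF-hand genes.

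Other cell types that carry S100b or S100a genes were looked for by their markers. With 4OHT in CreER cultures 12.4% of all genes were called, 305 higher and 639 lower. Under the filter lay 7 of 10 oligodendrocyte lineage markers with a probe set. So did 2 of 6 Schwann cell and melanocyte-lineage markers and 8 of 13 neuron markers. Of 3 tested oligodendrocyte lineage markers 0 passed with 4OHT in CreER cultures, and their summed signal over 10 genes was 1088 to 1542 with vehicle and 1312 to 1552 with 4OHT. Of 4 tested Schwann cell and melanocyte-lineage markers 1 rose, the transcription factor Mitf (0.50, adjusted p = 0.0276), with summed signals of 730 to 975 and 898 to 1151. Of 5 tested neuron markers Mapt and Syt1 rose and Map2 fell by 0.38, with summed signals of 2164 to 2569 and 1728 to 2525. For the 4 ependymal markers the sums were 84.4 to 118 and 46.1 to 87.0. The part of these cells in the S100 results was not tested.

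The tested genes whose log2 signal over the 16 arrays was most like that of S100b were named by Pearson correlation. Ptp4a3, a protein phosphatase, came first (r = 0.98; 0.99 over the 8 CreER arrays and 0.80 over the 8 without Cre). Ypel5 (0.96), the proprotein convertase Pcsk6 (0.96), the MAX-binding repressor Mxd4 (0.95), the exocyst subunit Exoc4 (0.95), Igfbp7 (0.94), Psrc1 (0.94) and the small heat shock protein Cryab (0.93) followed. Over the 8 arrays without Cre, where signals vary less, they ranged from 0.56 for Psrc1 to 0.89 for Pcsk6. All points share arrays and their brightness, and the 2 genotypes form separate clusters. Cryab had the widest range of these, 56.4 with vehicle and 223 with 4OHT in CreER cultures and 576 without Cre.

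**Figure D4:**
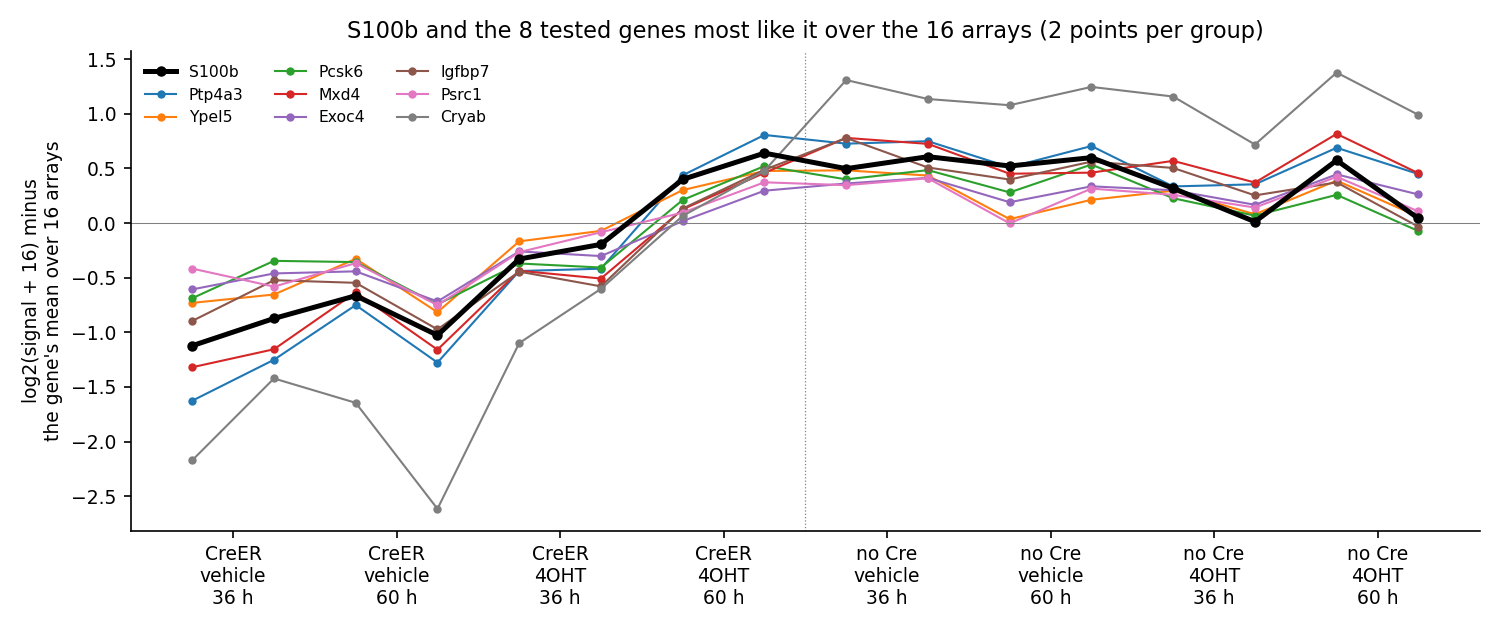
Log2(signal + 16) of S100b (black) and the 8 genes most like it, each minus its mean over the 16 arrays, with 2 arrays per group; lines join the points of a gene only to guide the eye. For each of the 8 genes the mean signal in CreER cultures is lower with vehicle than with 4OHT, and highest without Cre, while single arrays of these conditions overlap for some genes; Cryab spans the most.

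The other tested members had different company. S100a10 was most like the protease inhibitor Cstb (r = 0.99 over 16 arrays), the neuronal calcium sensor Hpcal1 (0.96) and the lysosomal galactosidase Glb1 (0.95). Within each genotype these r were 0.93 to 0.99. They are from unscaled signals, in which genes share the brightness of each array, and none was computed after scaling. S100a13 was most like the growth factor Pdgfc (0.99), the protease Prss23 (0.98) and the selenium carrier Selenop (0.98), all of them lower in CreER cultures with vehicle. The differences were −1.53 for Pdgfc and −1.34 for Selenop. The mean of Prss23 there was under the filter's signal of 51.1, against 323 without Cre, so no fold is given. Between members, S100b and S100a13 correlated at r = 0.87 over the 8 CreER arrays and 0.39 over the 8 without Cre. S100b and S100a10 gave 0.78 and 0.36, and S100a10 and S100a13 gave 0.90 and 0.76.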

How the data were processed

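RNA from 16 samples was hybridised to Affymetrix arrays after TRIzol extraction and ENZO labelling, per the labels. The deposited values are 1 linear intensity per probe set and array, made by the authors with MAS5 per the submitters' processing notes; its version and scaling target are not given in the sources used here. The 22690 probe sets include 64 controls, which were removed; among the others 20380 had 1 symbol, 691 several and 1555 none. All 16 arrays entered 1 limma fit (limma 3.58.1, R 4.3.3) of 8 group means on log2(signal + 16), with a mean-variance trend, 8 residual degrees of freedom, two-sided p-values, adjusted by Benjamini-Hochberg for each contrast separately, and a threshold of 0.05. Genes at or above the 40th percentile were tested. The prior degrees of freedom were infinite, so each gene's variance is that of the trend. Fold changes on this scale understate those of dim genes. Members and gene lists were chosen with earlier results of these data known. All members are named, with the 8 genes most like S100b, the 3 most like each other tested member, and up to 4 genes per list by smallest p in CreER cultures over both times; others named were chosen after their values were seen. Scaling, filter, pseudocount, variance model, probe set, actin covariate, replicate block and left-out arrays were tried. Same-numbered arrays deviated together at r = −0.13 to 0.31 (median −0.02), above 0.1 in 5 of 28 pairs of groups, so numbers were not taken as pairs. The number of arrays limits the precision.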

Additional observations from a re-analysis of the deposited data

Results flagged for a closer look

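The response of S100b to 4OHT differed between genotypes: the difference of the log2 changes, CreER minus no Cre over both times, was 1.37 (limma adjusted p = 5.54e-10). All 4 CreER arrays with 4OHT were above all 4 with vehicle, and the share of all genes that separate in this way was not counted.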

How the results depend on the processing

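Of 675 recomputed differences of the members, 597 kept their side of the threshold, 57 no longer passed, 21 newly passed and 0 called ones changed sign; of 209 recomputed counts of members called, 52 differed from the reported count. S100b in CreER cultures passed under all 19 alternatives over both times (0.94 to 1.14) and all 15 at 60 h (1.05 to 1.55). With no filter on signal, the tested members called were 1 over both times, 0 at 36 h, 1 at 60 h and 0 for time, with S100b at 0.74 at 36 h (adjusted p = 0.114) and 0.27 for time. With no moderation they were 1, 0, 1 and 0, with 0 for the difference between genotypes and 1 under 4OHT, and S100b lost its call at 36 h (0.74), for that difference (1.37, adjusted p = 0.110, where 0 of all genes passed) and for time (0.27). With only the arrays compared, 1 was called over both times and 1 at 60 h. Median scaling and quantile normalization each gave 2 at 36 h, 3 for the difference between genotypes and 1 for that between times (S100b 0.78 and 0.72); median scaling gave 2 for time, and quantile normalization 1 without Cre at 60 h. The actin covariate gave 2 at 36 h, 1 at 60 h and 0 for time (S100b 0.58), and the other probe sets 2 at 36 h and S100b at −0.39 under 4OHT. With the replicate block 0 were called for time (S100b 0.27, adjusted p = 0.0603), and the block changed no other call of S100b, S100a10 or S100a13; among all genes without Cre it called 2 (5 as reported) over both times and 7 (13) at 60 h. Leaving out single arrays gave 1 to 3 called over both times, 0 to 1 at 36 h, 1 to 2 at 60 h and 0 to 1 for time, with S100b at 0.61 to 0.86 at 36 h and 0.20 to 0.34 for time.

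Counts of all genes depended more on the setting: 390 to 2946 over both times in CreER cultures (944 as reported), 0 to 1629 at 36 h (201), 56 to 2260 at 60 h (535), 0 to 1461 for the difference between genotypes (180), 0 to 168 for that between times (15), 1292 to 4215 between genotypes with vehicle (2640), 36 to 3480 for time (900), and without Cre 0 to 62 (5), 0 to 51 (1) and 0 to 565 (13). As deposited 305 genes were higher and 639 lower in CreER cultures over both times, against 1053 and 1457 after median scaling and 1490 and 1456 after quantile normalization. Between genotypes with vehicle 610 were higher and 2030 lower, against 2188 and 1786, and 2225 and 1990. Median scaling moved the median of all genes there from −0.13 to 0.04. S100a4 kept its genotype difference under 4OHT in 13 of 13 alternatives but lost its 60 h response in 6 of 9 and its vehicle difference in 8 of 13, among them pseudocount 1 (adjusted p = 0.123 and 0.0569), no moderation (0.147 and 0.113) and, for the response, no trend (0.0502). Members near or under the filter are limited by signal over background.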
